A study of Mus musculus with 17 samples.

Results

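The genes described here are the 9 mouse genes Ptch1, Smo, Gli1, Gli2, Gli3, Hhip, Gas1, Boc and Cdon, which encode the receptors, co-receptors and transcription factors of the Hedgehog pathway. They were picked by symbol from the 56691 gene rows of the count table, with earlier results of these data known, and all 9 were found. Hedgehog ligands are secreted proteins that bind Patched 1 at the primary cilium and so release Smoothened, a membrane protein that Patched 1 otherwise keeps silent. Smoothened then turns the GLI proteins from repressors into activators of transcription, and Ptch1, Gli1 and Hhip are themselves transcribed in response in many cell types. In the forebrain, sonic hedgehog released by neurons acts on nearby astrocytes.

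The question behind the experiment was how astrocytes respond to 2 families of signals that neurons supply, Hedgehog and fibroblast growth factor (FGF). Astrocytes were taken from the whole brain of C57BL/6 mice at P2, without olfactory bulbs and cerebellum, by immunopanning, in which dishes coated with antibodies first removed cells carrying CD45 and the O4 antigen and then kept cells carrying HepaCAM. All cultures grew in a serum-free medium that contained heparin-binding EGF-like growth factor. RNA was read from its 3ʹ end, so a read counts a transcript near its last exon and values were not divided by gene length. The 17 libraries form 5 groups in 2 experiments. In the first, 3 cultures received SAG, a small molecule that activates Smoothened directly, at 500 ng/ml for 3 days from day 3 in vitro, and 3 received its solvent DMSO. In the second, 4 cultures received FGF2 and 3 received FGF10, both at 50 ng/ml for 7 days from day 2 in vitro, and 4 received PBS. No group carried a genetic change, and no group received a Hedgehog ligand.

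Total counts per library ran from 17481727 to 68342287. The labels number the replicates without naming the animals, so p-values cover the spread between cultures and nothing wider. All 9 astrocyte markers were read in every group, with summed levels of 3388 to 5457 CPM (read counts scaled to a common library size, with TMM over all 17 libraries) across libraries. Summed microglia and macrophage markers did not exceed 4.35 CPM in any library, and Cx3cr1 was at 0 in all groups but FGF2. Between SAG and DMSO, however, 2 marker lists did not overlap. Among single genes tested, 14.2% did not overlap between these groups, 8.21% being lower and 5.96% higher with SAG. Oligodendrocyte lineage markers (6 of 7 read with DMSO and 5 of 7 with SAG) summed to 194.4 to 312.4 CPM with DMSO and 138.1 to 169.2 with SAG, with Sox10 at 72.1 to 118.1 and 39.4 to 48.6 CPM. Ependymal markers (5 of 5 and 4 of 5 read) summed to 209.6 to 285.9 CPM with DMSO and 85.5 to 153.5 with SAG, most of it Foxj1, at 143.3 to 231.5 and 69.7 to 138.9 CPM. Mog, Cldn5, Pecam1 and Dcn were at 0 in all DMSO and SAG libraries, but other markers of their lists were read. Endothelial and mural markers summed to 136.9 to 227.0 CPM with DMSO (5 of 7 read) and 114.4 to 175.3 with SAG (4 of 7). Neuron markers summed to 73.3 to 204.5 and 26.1 to 75.4 CPM, and fibroblast markers to 26.2 to 31.3 and 21.9 to 26.6 CPM. The groups overlapped in these lists. They also overlapped in the astrocyte sum, at 4172 to 4490 CPM with DMSO and 3615 to 4290 with SAG. The astrocyte marker Aqp4 overlapped too, at 44.45 to 68.49 CPM with DMSO and 38.41 to 63.71 with SAG. The groups did not overlap in the astrocyte marker Gja1, at 106.4 to 127.7 CPM with DMSO and 41.6 to 86.0 with SAG. In the other direction Olig2, a transcription factor of the oligodendrocyte lineage named here after its values were seen, was higher in every SAG library (1763 to 1910 CPM) than in any DMSO library (938.9 to 1437 CPM). Its unadjusted p was 0.00169 and its adjusted p 0.369 in edgeR. Olig2 is not in the marker list above, and it is among the transcripts often raised by the pathway that are counted below. In the FGF experiment replicates 1 and 2 stood apart from replicates 3 and 4 in some genes, with Olig2 at 756.0 to 984.8 and 1502 to 2217 CPM over the 3 groups. Each of the 9 members overlapped between these sets when the 3 groups were pooled. Within FGF2 alone some members split by set, such as Gas1 and Gli2, and others did not, such as Smo. The part of these cells in the values below was not tested, and in bulk RNA fewer cells of a type and less RNA per cell cannot be told apart.

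Ptch1 (chr13:63508328-63573598, minus strand, GRCm38) encodes the receptor Patched 1 and was the only member that edgeR called with SAG. In the DMSO cultures it was read at 81.4, 102.6 and 67.5 CPM in replicates 1 to 3, and in the SAG cultures at 463.9, 482.1 and 457.5 CPM. The SAG libraries lay close together and far above every DMSO library. Means of 83.8 ± 17.7 CPM for DMSO and 467.8 ± 12.8 CPM for SAG (SD, n = 3 each) corresponded to a 5.67-fold rise. Its log2(fold-change) was 2.50 (SE 0.218), at an adjusted p of 0.00173 in edgeR's quasi-likelihood test. Ptch1 ranked 1 of the 12538 genes tested by p-value. The background to that call is small, since 8 genes passed the same threshold, 0.0638% of those tested, and Ptch1 was 1 of 9 members to pass. The call held with each library left out in turn (log2(fold-change) 2.36 to 2.68, adjusted p 0.00632 to 0.0448).

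Hhip (chr8:79965851-80058006, minus strand) encodes Hedgehog-interacting protein, a membrane protein that binds Hedgehog ligands and holds them away from Patched 1. No read was assigned to it in any DMSO library. In the SAG cultures it had 359, 759 and 532 counts, or 10.3, 11.3 and 16.97 CPM. Every SAG library therefore held reads of Hhip and no DMSO library did. The mean with SAG was 187 times a floor of 3 counts per library, and 157 times it without the highest SAG library. These ratios are no lower bound of the change, since cultures of 1 group can differ by more than this floor. With PBS, Hhip ran from 0 to 132 counts. With the DMSO group at 0, edgeR's test gave an adjusted p of 0.425 and did not call the difference, whereas DESeq2 called it (adjusted p 4.96e-06), as it did 3.02% of the genes it tested. Genes that were silent in 1 group and read in the other were uncommon but not absent at this level. Among 2243 genes at a mean of 10 to 20 CPM with SAG, 7 (0.312%) had 0 counts in every DMSO library and more than 3 in every SAG library, and in the converse direction there were 18 of 2258 (0.797%).

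Gli1 (chr10:127329882-127341974, minus strand) encodes the GLI factor that acts as an activator only and is widely used as a readout of the pathway. It was not read in any DMSO, PBS or FGF10 library. With SAG it had 1333, 448 and 210 counts, or 38.2, 6.67 and 6.70 CPM. All 3 SAG libraries had reads of Gli1, but replicate 1 held more than the other two together. The mean of 17.2 ± 18.2 CPM (SD, n = 3) was 250 times the floor in DMSO and 97.1 times it without SAG replicate 1. As for Hhip, these ratios are no lower bound of the change. In edgeR the adjusted p was 0.369, and it lay between 8.61e-08 and 0.595 over 7 other settings, of which 3 called the gene. Gli1 overlaps Arhgap9 on the opposite strand by 62 bp at its 3ʹ end and the antisense gene Gm47200 by 9584 bp. Arhgap9 had at most 1 count and Gm47200 none in the SAG libraries.

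Together, Ptch1, Hhip and Gli1 were the 3 of 9 members whose SAG libraries all lay above the DMSO libraries. Of all genes tested 14.2% did not overlap between these groups in either direction, 5.96% being higher and 8.21% lower with SAG. An exact permutation test of 3 against 3 cannot give a p below 0.1, the value of each of these genes. Across the 17 libraries the 3 genes also had like profiles, with a Pearson correlation of log2(CPM + 1) of 0.836 between Ptch1 and Hhip, 0.697 between Gli1 and Hhip and a value between these for Ptch1 and Gli1. These correlations describe the SAG libraries standing apart and carry no test, since libraries of a group share their treatment.

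The 250 bases upstream of the RefSeq start are shown for Ptch1 and Hhip, the ligand-binding members that stood apart with SAG, because the start of a gene is where GLI proteins are often looked for. The promoter table (RefSeq, GRCm38.p6) held 7 of the 9 members, without Gli1 and Boc. The Ptch1 window (chr13:63565736-63565985, minus strand) lies within the annotated span of the gene, before an internal start, and the Hhip window (chr8:80058009-80058258, minus strand) lies just before its gene. Both are printed 5ʹ to 3ʹ along the gene, with GC boxes (GGGCGG or CCGCCC) in capitals.
Ptch1: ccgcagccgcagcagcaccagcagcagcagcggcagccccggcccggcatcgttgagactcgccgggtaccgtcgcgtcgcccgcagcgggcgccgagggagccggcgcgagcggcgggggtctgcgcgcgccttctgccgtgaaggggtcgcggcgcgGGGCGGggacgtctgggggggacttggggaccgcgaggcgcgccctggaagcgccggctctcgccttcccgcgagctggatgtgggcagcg
Hhip: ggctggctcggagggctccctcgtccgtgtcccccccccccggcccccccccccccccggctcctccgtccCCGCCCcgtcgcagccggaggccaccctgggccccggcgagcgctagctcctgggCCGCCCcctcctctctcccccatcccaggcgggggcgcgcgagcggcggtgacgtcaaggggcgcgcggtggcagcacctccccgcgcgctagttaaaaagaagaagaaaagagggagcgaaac
The windows have a GC content of 78.4% and 76.0%, against a median of 52.4% over 32851 windows of this length, and hold 1 and 2 GC boxes. A GC box is present in 32.7% of all windows. The GLI consensus GACCACCCA, or TGGGTGGTC on the other strand, was found in 0 of the 7 member windows and in 0.225% of all windows, which says only that these letters are not in these stretches. Like that of Ptch1, the windows of Gli3 and Cdon lie within the annotated span of their genes. The Cdon window (chr9:35451826-35452075) also overlaps annotated exons of Cdon and has a GC content of 42.8%.

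**Figure D1:**
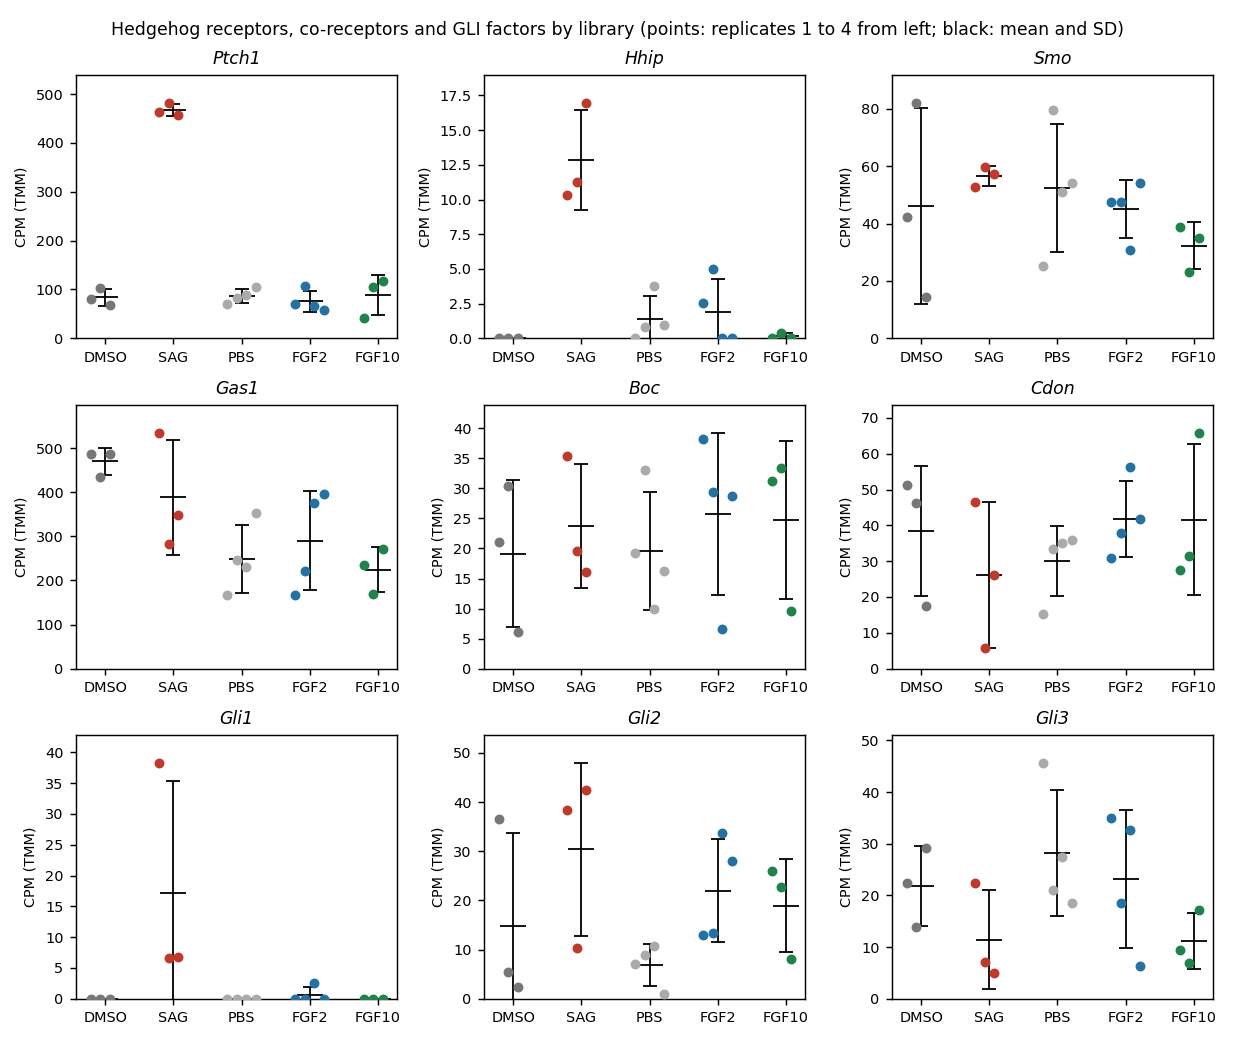
Level of each member in every library, in CPM scaled by TMM on a linear axis, with points for replicates 1 to 4 from left to right and black marks for the mean and SD of each group (bars cut at 0). Ptch1, Hhip and Gli1 stand above all other groups with SAG, at means of 467.8, 12.9 and 17.2 CPM, while the remaining members overlap between SAG and DMSO.

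Smo (chr6:29735503-29761365, plus strand) encodes Smoothened, the target of SAG itself. Its level was 42.3, 82.0 and 14.3 CPM with DMSO and 52.9, 59.8 and 57.2 CPM with SAG. The SAG cultures lay inside the wide range of the DMSO cultures, and the log2(fold-change) was 0.32 (SE 0.549, adjusted p = 1.00 in edgeR). The gene holds a pseudogene, Gm13717, on the same strand, which drew up to 545 counts in 5 libraries. Reads of Ptch1 per read of Smo were higher in each SAG culture (8.77, 8.06 and 7.99) than in any DMSO culture (1.92, 1.25 and 4.74). The means were 8.27 ± 0.432 and 2.64 ± 1.85 (SD, n = 3 each), with an exact permutation p of 0.1, the smallest possible. In the FGF experiment this ratio spanned 1.04 to 2.80 with PBS, 1.08 to 2.26 with FGF2 and 1.06 to 4.57 with FGF10, and no library reached the SAG range.

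Gas1, Boc and Cdon encode surface proteins that bind Hedgehog ligands together with Patched 1 and help the ligand to act. Gas1 (chr13:60174405-60177365, minus strand) was the most highly read of the 3 in every library. It had 488.1, 435.3 and 486.9 CPM with DMSO and 534.8, 283.1 and 349.0 CPM with SAG, so that SAG replicate 1 lay above and the other two below the controls. Its log2(fold-change) was -0.25 (SE 0.230, adjusted p = 1.00 in edgeR). Boc (chr16:44485049-44558897, minus strand) had 21.03, 30.4 and 6.02 CPM with DMSO and 35.5, 19.6 and 16.0 CPM with SAG. Cdon (chr9:35421128-35507652, plus strand) had 51.2, 46.2 and 17.6 CPM with DMSO and 46.6, 5.78 and 26.1 CPM with SAG. The groups overlapped for both genes, and neither was called, at 0.33 (SE 0.838) for Boc and -0.53 (SE 0.756) for Cdon on the log2 scale (edgeR, adjusted p = 1.00 for each). The snRNA gene Gm25630 inside Cdon had up to 294 counts in 7 libraries.

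Gas1 also differed between the vehicles, in that its lowest DMSO library, at 435.3 CPM, lay above its highest PBS library, at 352.6 CPM. The group means were 470.1 ± 30.2 (SD, n = 3) and 249.2 ± 77.0 CPM (SD, n = 4). Of 15458 genes, 3.00% lay lower with PBS than with DMSO without overlap. The vehicles differed in solvent, starting day and duration as well, and these cannot be told apart.

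Gli2 and Gli3 encode the GLI factors that are present before the signal. Gli2 supplies most of the activator in many tissues, and Gli3 is cut to the main repressor when the pathway is quiet. Gli2 (chr1:118834132-119053619, minus strand) had 36.6, 5.44 and 2.44 CPM with DMSO and 38.4, 10.3 and 42.4 CPM with SAG. Gli3 (chr13:15463235-15730026, plus strand) had 22.3, 13.8 and 29.2 CPM with DMSO and 22.4, 7.03 and 4.95 CPM with SAG. The groups overlapped for each gene, with a log2(fold-change) of 1.06 (SE 1.04) for Gli2 and -0.91 (SE 0.996) for Gli3, and neither passed the test (edgeR, adjusted p = 1.00 for each). Single libraries moved both, to 2.96 for Gli2 without DMSO replicate 1 and -1.83 for Gli3 without SAG replicate 1.

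Within each library the make-up of the GLI reads nevertheless differed. Gli3 took 37.9, 71.8 and 92.3% of the reads on the 3 GLI genes with DMSO, and 22.6, 29.3 and 9.14% with SAG. The SAG values were all lower, with means of 20.3 ± 10.3 and 67.3 ± 27.5% (SD, n = 3 each) and an exact permutation p of 0.1, the smallest possible. Gli1 held 38.6, 27.8 and 12.4% of GLI reads with SAG and none with DMSO. Counting Gli2 and Gli3 alone, the Gli3 share was 36.8, 40.7 and 10.4% with SAG, and the groups overlapped (exact permutation p = 0.2). The separation of the groups in the share of Gli3 thus needed the reads of Gli1.

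**Figure D2:**
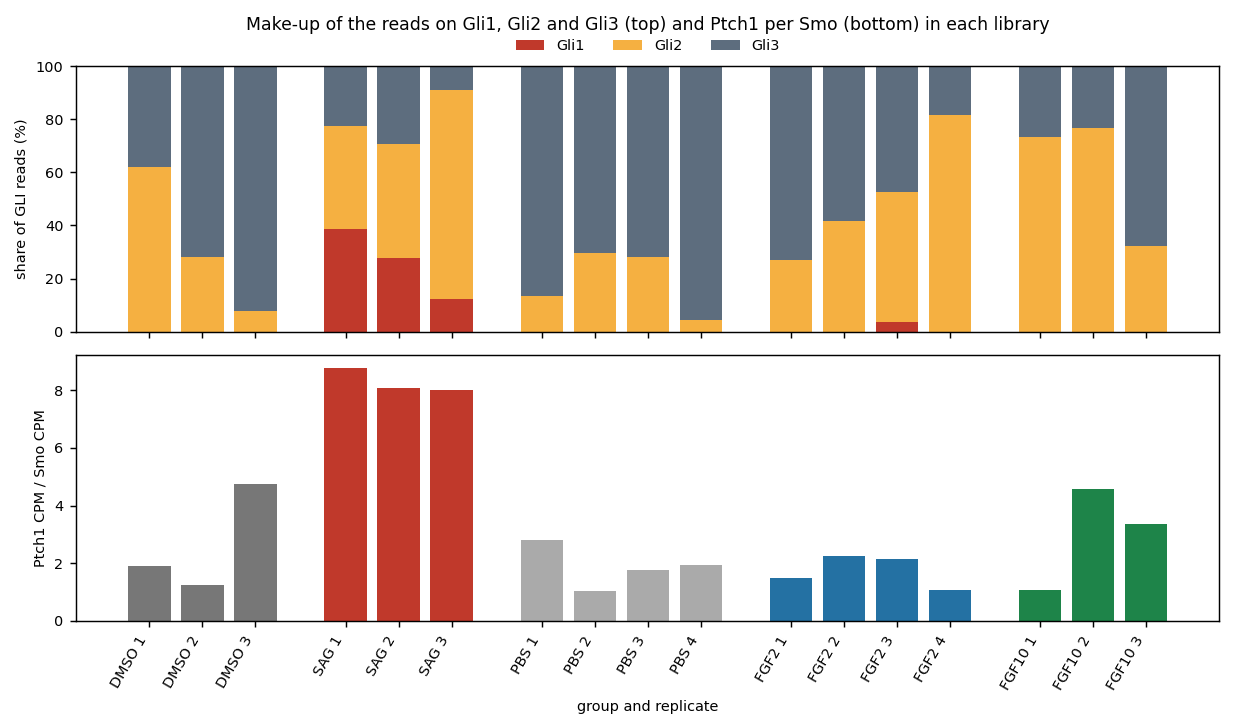
Top, share in percent of the reads on Gli1, Gli2 and Gli3 that fell to each gene in every library. Bottom, Ptch1 CPM divided by Smo CPM in the same libraries on a linear axis from 0. Gli1 takes 12.4 to 38.6% of GLI reads in the SAG libraries and is seen in 1 other library, FGF2 replicate 3, and Ptch1 per Smo is 7.99 to 8.77 with SAG and at most 4.74 elsewhere.

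Over all 9 members, 6 had a higher and 3 a lower mean with SAG, and their median log2(fold-change) of 0.33 compares with -0.02 over all genes tested. The members that overlapped between groups had standard errors of 0.230 to 1.04 on the log2 scale, against 0.218 for Ptch1, and these errors set the size of a difference that could be seen.

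In the FGF experiment the members were asked whether a growth factor acting through another receptor family moves them. FGF2 and FGF10 were each compared with the same 4 PBS libraries, so their results are not independent of each other. No member passed the test in either comparison. Nor did any other gene, since 0 of 12744 genes were called with FGF2 and 0 of 13309 with FGF10 (0% each). At an unadjusted p under 0.05 edgeR counted 223 genes (1.75%) and 305 genes (2.29%), and DESeq2 called 9 (0.0713%) and 37 genes (0.283%) at an adjusted p under 0.05, none of them a member.

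Ptch1, called with SAG, was not called here. It was 70.6, 82.4, 89.5 and 104.6 CPM with PBS, 70.5, 107.2, 66.8 and 58.8 CPM with FGF2, and 41.1, 105.8 and 117.3 CPM with FGF10. All 3 groups overlapped. The log2(fold-change) was -0.19 (SE 0.270) with FGF2 and 0.03 (SE 0.349) with FGF10 (edgeR, adjusted p = 1.00 for each). The sign of the FGF10 value changed with the library left out. The effect of SAG on Ptch1 minus the effect of FGF2 was 2.68 on the log2 scale (SE 0.428), with an adjusted p of 0.0158 in a fit of all 17 libraries, in which 4 of 15458 genes (0.0259%) were called. Without PBS replicate 4 that adjusted p was 0.0553. The effect of SAG minus that of FGF10 was 2.46 (SE 0.445) with an adjusted p of 0.0532, and no gene passed there (0%, with 1096 genes or 7.09% at an unadjusted p under 0.05 and 1207 genes or 8.24% called by DESeq2). Ptch1 passed there in the 5 other settings run on all libraries (adjusted p 5.04e-07 to 0.0412), DESeq2 among them.

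Gli1 stayed without a read in 10 of the 11 libraries of this experiment. The exception was FGF2 replicate 3, with 126 counts or 2.64 CPM. Hhip was read at 0.850, 3.76 and 0.981 CPM in PBS replicates 2 to 4 and was at 0 in replicate 1. With FGF2 it had 2.54 and 4.98 CPM in replicates 1 and 2 and 0 in replicates 3 and 4, and with FGF10 it was seen only in replicate 2, at 0.412 CPM. Thus Hhip was not silent in these cultures, but its highest value here, 4.98 CPM, lay below its lowest with SAG, 10.3 CPM. The test of the SAG effect against each FGF effect did not pass for Hhip (edgeR, adjusted p = 0.643 and 0.551), although DESeq2 called it against FGF10 (adjusted p 0.00695), and for Gli1 no such difference could be fitted because both vehicles were at 0.

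Gli2 was the member that separated FGF2 from PBS. It had 7.14, 8.87, 10.7 and 0.886 CPM with PBS and 12.9, 13.3, 33.6 and 28.1 CPM with FGF2, so that every FGF2 library lay above every PBS library. The log2(fold-change) was 1.68 (SE 0.862, edgeR, unadjusted p = 0.0722 and adjusted p = 1.00), and an exact permutation test of the CPM values gave 0.0286, the smallest p that 4 against 4 allows. Of all genes tested 2.45% did not overlap between these groups, 1.22% being higher, against 1 of the 8 members tested. The separation was larger in replicates 3 and 4 (log2(fold-change) 2.42) than in replicates 1 and 2 (0.72). With FGF10, Gli2 had 26.0, 22.8 and 8.19 CPM, of which the first 2 lay above the PBS range (log2(fold-change) 1.47, SE 1.07, edgeR, adjusted p = 1.00).

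Gli3 was the member that separated FGF10 from PBS. It had 45.6, 21.03, 27.4 and 18.6 CPM with PBS and 9.40, 6.95 and 17.2 CPM with FGF10, all 3 below the lowest PBS library. Its log2(fold-change) was -1.32 (SE 0.683, edgeR, unadjusted p = 0.0749 and adjusted p = 1.00), and -2.03 in replicates 1 and 2 alone, with an exact permutation p of 0.0571, the smallest that 3 against 4 allows. Of all genes tested 4.79% did not overlap, 2.02% being lower. With FGF2, Gli3 had 34.9, 18.6, 32.7 and 6.40 CPM and overlapped PBS (log2(fold-change) -0.28, SE 0.587, edgeR, adjusted p = 1.00).

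As a share of GLI reads, Gli3 made up 86.5, 70.3, 72.0 and 95.4% with PBS. With FGF2 the share was 73.0, 58.2, 47.4 and 18.6%, and with FGF10 it was 26.6, 23.4 and 67.8%. The FGF10 values were all below those of PBS (means 39.3 ± 24.8%, SD, n = 3, and 81.1 ± 12.0%, SD, n = 4, exact permutation p = 0.0571), whereas FGF2 replicate 1 overlapped them (exact permutation p = 0.0857).

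Smo and the co-receptors overlapped between both growth factors and PBS. Smo ranged from 25.2 to 79.6 CPM with PBS, 30.9 to 54.3 with FGF2 and 23.2 to 38.8 with FGF10. Gas1 ranged from 167.3 to 352.6 CPM with PBS, 166.8 to 396.0 with FGF2 and 169.0 to 270.8 with FGF10. Boc ranged from 9.86 to 33.1, 6.51 to 38.2 and 9.65 to 33.4 CPM, and Cdon from 15.3 to 36.0, 31.0 to 56.2 and 27.6 to 65.8 CPM, in the same order of groups. None of these 4 genes had a log2(fold-change) beyond -0.69 (Smo with FGF10, SE 0.441) or 0.48 (Cdon with FGF2, SE 0.407, and with FGF10, SE 0.489).

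**Figure D3:**
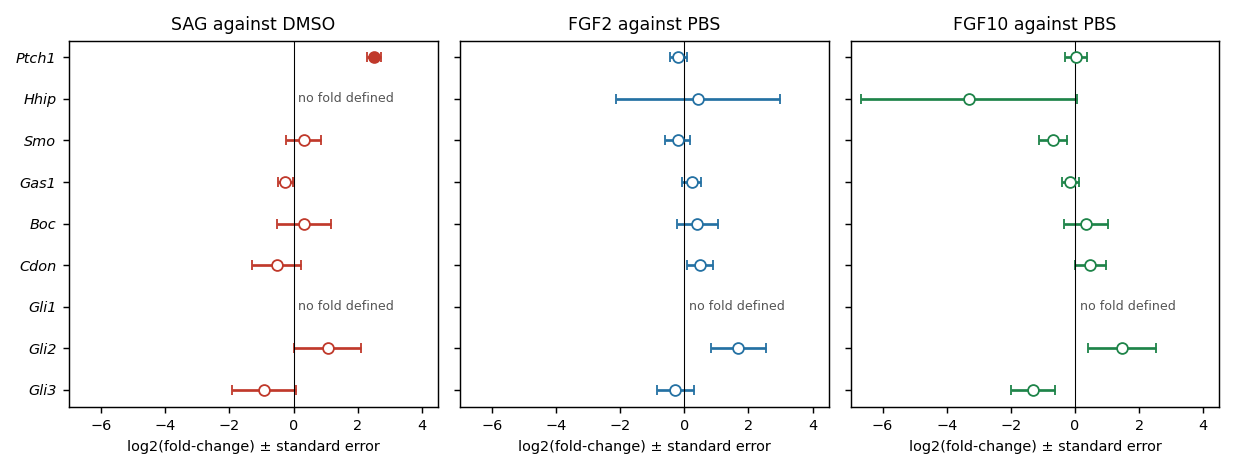
Log2(fold-change) of each member with its standard error in the 3 comparisons, from edgeR's quasi-likelihood fit, with a filled point for an adjusted p under 0.05. Ptch1 with SAG, at 2.50, is the filled point, and no fold is drawn where a group was at 0 or the gene was not tested.

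Ordered by mean level over all 5 groups, Ptch1, Gli1 and Hhip were highest with SAG and did not overlap the next group. For Ptch1 the other 4 groups overlapped as neighbours, with means of 88.1 CPM (FGF10), 86.8 (PBS), 83.8 (DMSO) and 75.8 (FGF2). For Gas1 the order was DMSO, SAG, FGF2, PBS and FGF10, with each neighbouring pair overlapping. Smo, Gli2, Gli3, Boc and Cdon likewise had no neighbouring groups that separated.

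The other genes of the pathway were taken from a list of 45 symbols, grouped by role, with 1 gene standing in both of 2 groups. Of 8 genes for ligands and their release 5 were tested with SAG, 2 higher and 3 lower (median log2(fold-change) -0.83), and of 5 other receptors and surface binders 4 were tested, 1 higher and 3 lower (median -0.87). All 19 genes that carry the signal at the cilium and on to GLI were tested, 11 higher and 8 lower (median 0.17). None of these 3 groups held a called gene. Of 14 transcripts often raised by the pathway 9 were tested, 6 higher and 3 lower (median 0.70), and 2 were called. Over all 12538 genes tested, 8 (0.0638%) were called, and the lists were drawn up with earlier results of these data known.

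The ligands themselves were scarce. Shh was at 0 in 10 libraries and at most 9.83 CPM, Ihh was read only in FGF10 replicate 3, at 10.3 CPM, and Dhh was highest in FGF2 replicate 3, at 25.9 CPM, and at 0 in all DMSO and SAG libraries. Sufu, which holds GLI proteins in the cytoplasm, was read in every library at 6.71 to 51.3 CPM, with a log2(fold-change) of 0.28 with SAG (SE 0.671, edgeR, adjusted p = 1.00).

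The 2 called genes drive the cell cycle in G1. Ccnd1, which encodes cyclin D1, had 39.4, 68.1 and 34.6 CPM with DMSO and 315.2, 212.9 and 176.7 CPM with SAG (log2(fold-change) 2.33, SE 0.332, edgeR, adjusted p = 0.0366). Its kinase partner Cdk6 had 66.4, 99.5 and 115.9 CPM with DMSO and 363.7, 352.1 and 366.4 CPM with SAG (log2(fold-change) 1.96, SE 0.242, edgeR, adjusted p = 0.0117). Like Ptch1, Cdk6 was narrow in its SAG libraries and separate from all others, whereas Ccnd1 split by replicate set in the FGF experiment, at 24.1 to 86.9 CPM in replicates 1 and 2 and 179.1 to 1016 CPM in replicates 3 and 4 over the 3 groups. With each of the 6 libraries left out in turn Ccnd1 was called 1 time (without DMSO replicate 2, adjusted p 0.0377 to 0.290 in edgeR). Cdk6 was called 2 times (without DMSO replicate 3 or SAG replicate 1, adjusted p 0.0286 to 0.0863 in edgeR). Ccnd1 was also lost with all 17 libraries in the fit (adjusted p 0.588 in edgeR). In edgeR's main fit neither passed the study's adjusted p under 0.01. With DESeq2, the study's tool, both passed it (adjusted p 6.13e-12 for Ccnd1 and 1.52e-16 for Cdk6). DESeq2 called 3.02% of the genes it tested at 0.05. In edgeR both passed 0.01 with the replicate block, without a filter and at a minimum mean of 10 counts. The pathway genes at the ends of the list with SAG, among those at a mean of 10 CPM or more, were Nkx2-2, a transcription factor of ventral progenitors and the oligodendrocyte lineage, at 2.63 (SE 0.754, adjusted p = 0.457), and Kif7, a cilium protein that regulates GLI, at -2.02 (SE 1.55, adjusted p = 1.00), on the log2 scale in edgeR. Nkx2-2 had 5.72, 14.6 and 2.84 CPM with DMSO and 36.8, 51.9 and 52.5 CPM with SAG, without overlap. Of all genes tested 5.96% were higher with SAG in this way.

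With the growth factors no pathway gene was called. With FGF2, of the 19 genes at the cilium 6 were higher and 13 lower (median log2(fold-change) -0.11), and of 9 transcripts often raised by the pathway 7 were higher and 2 lower (median 0.42). With FGF10 the counts were 10 and 9 of 19 (median 0.10) and 7 and 3 of 10 (median 0.11). Few ligand and surface genes could be tested, namely 2 and 3 with FGF2 (medians 0.77 and -1.17) and 4 each with FGF10 (medians 2.59 and -0.00). The ends were Lrp2, a large surface receptor that binds sonic hedgehog, at -1.94 (SE 0.927) and Ccnd1 at 1.32 (SE 0.880) with FGF2, and Btrc, part of a ubiquitin ligase that marks GLI proteins, at -1.45 (SE 0.857) and the cilium protein Tulp3 at 0.63 (SE 0.444) with FGF10, with an adjusted p of 1.00 in edgeR for each.

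**Figure D4:**
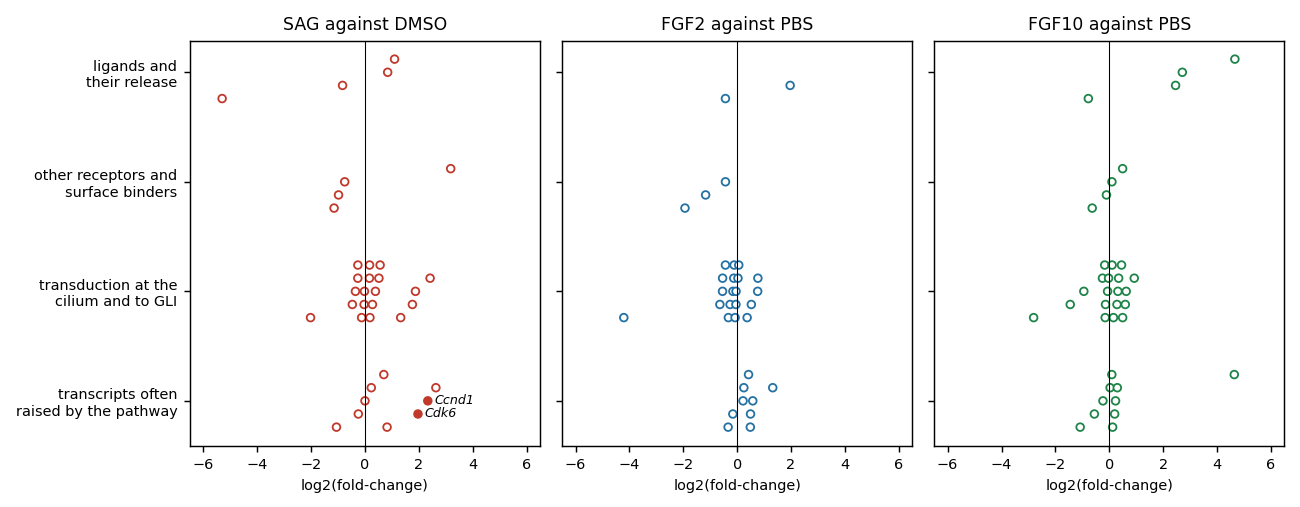
Log2(fold-change) of the other tested pathway genes by role in the 3 comparisons, with filled points for an adjusted p under 0.05 in edgeR's quasi-likelihood test and points spread vertically for display. Ccnd1 at 2.33 and Cdk6 at 1.96 with SAG are the filled points, and genes with a group at 0 are left out.

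Genes whose levels ran most like a member across the 17 libraries were named by the Pearson correlation of log2(CPM + 1) among 9068 genes at a mean of 10 CPM or more. They are a description without a test, since libraries share treatment and depth. For Ptch1 they were Grk3 (0.933), a kinase of G-protein-coupled receptors, Itih3 (0.853) and Smad3 (0.848). For Gli1 they were Grk3 (0.879), Gng12 (0.877) and Cdk6 (0.849), and for Hhip they were Ptch1 (0.836), Grk3 (0.777) and Gm10125 (0.770). Grk3 thus came among the first 3 for each of the members that stood apart with SAG. The members that overlapped between SAG and DMSO had other neighbours. Smo ran with Anxa7 (0.808), Pld1 (0.799) and Tent4a (0.794), Gas1 with Akap8 (0.828), Rps28 (0.782) and Ctnnbl1 (0.771), and Cdon with Stt3b (0.902), Rpa3 (0.861) and 4932438A13Rik (0.796). For Boc they were B230354K17Rik (0.805), Ramp1 (0.796) and Gse1 (0.788), for Gli2 G3bp1 (0.802), Smarcad1 (0.793) and Ppp2r2a (0.784), and for Gli3 Gm2115 (0.800), Arpc5 (0.778) and Nemf (0.769).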

How the data were processed

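The authors deposited whole-number read counts per gene from Lexogen 3ʹ-end libraries, aligned and counted with STAR on GRCm38 per the labels. Strand setting, annotation and use of molecular identifiers are not given in the sources used here, so reads copied by PCR may be counted more than once. The columns for SAG are headed Shh in the table and were matched to the SAG titles. Of 56805 rows, 114 spike-in rows (at most 86 counts per library) were left out. The methods name fewer FGF2 replicates than the 4 labelled, and all 4 were used.

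Counts were tested in edgeR 4.0.16 (R 4.3.3) with the quasi-likelihood test, TMM within each comparison, filterByExpr (minimum count 10, minimum total 15) and Benjamini-Hochberg adjustment over all genes tested, at an adjusted p under 0.05. SE was taken from the F statistic. Printed CPM were scaled by TMM over all 17 libraries. Effects of SAG and FGF were compared in a fit of all libraries. DESeq2 1.42.0, other filters and scalings, a replicate block and leaving out libraries were alternatives. The scripts were tested on simulated data. Exact permutation tests of CPM were two-sided. Positions are from GENCODE M21, and promoter windows from RefSeq. Named were all members, called pathway genes, the pathway genes with the highest and lowest change at a mean of 10 CPM or more per comparison, Sufu and the ligands, and the 3 genes most like each member. A further gene that the rule names is not reported here. Gene members and lists were chosen with earlier results of these data known.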

Additional observations from a re-analysis of the deposited data

Results flagged for a closer look

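Gli1 in FGF2 replicate 3, at 2.64 CPM (126 counts), stood apart from the other FGF2 libraries, which were at 0. Cdon in PBS replicate 1, at 15.3 CPM, stood apart from the other PBS libraries at 33.4 to 36.0 CPM. Both exceeded Dixon's 95% critical value for 4 samples, in 2 of 17 member and group pairs tested. Chance flags about 1 in 20 such groups, a rate that does not apply to Gli1, where the other libraries were all at 0 and any read would have been flagged. The effect of SAG on Ptch1 exceeded that of FGF2 by 2.68 on the log2 scale (adjusted p = 0.0158, edgeR's test of the difference). The experiments also differed in vehicle, starting day and duration, whose part cannot be told apart.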

How the results depend on the processing

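Ptch1 stayed called with SAG under all 7 other settings (log2(fold-change) 2.48 to 2.52) and with each library left out. With SAG, 1 member was called in each of the fits without 1 library, 2 members were called without a filter on low counts (Gli1 at an adjusted p of 0.0375) and 3 with DESeq2, or with DESeq2 without a filter, a setting chosen after seeing the data. Of all genes, the 8 called with SAG became 4 at the study's threshold, 76 without a filter, 42 at a minimum mean of 10 counts, 12 with the block, 368 with DESeq2, 4 with all 17 libraries in the fit 394 with DESeq2 without a filter and 1 to 7 with a library left out (1 without DMSO replicate 1, 2 without SAG replicate 2 or 3, 5 without DMSO replicate 2 or 3). For SAG minus FGF2, 0 members passed an adjusted p under 0.01 with an absolute log2 change above 1, and 0 to 1 passed with a library left out (0 without PBS replicate 4). For SAG minus FGF10, 1 passed (Ptch1) with DESeq2's size factors, without a filter, at a minimum mean of 10 counts and with the replicate block, 2 passed with DESeq2 (Ptch1 and Hhip), and 0 to 1 with a library left out (1 without DMSO replicate 2, SAG replicate 3 or FGF10 replicate 3). The cause of these shifts was not tested.

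Signs turned for members that were not called. In replicates 1 and 2 alone the log2(fold-change) was 0.23 for Ptch1 and -0.08 for Gas1 with FGF2, and -0.06 for Ptch1 with FGF10. Hhip with FGF2 was -1.97 with the replicate block, -4.54 with the replicate set as a term and -9.53 in replicates 3 and 4. Gas1 with FGF10 was 0.07 with the replicate block. With a library left out, Smo ran from -0.12 to 1.02 and Boc from -0.10 to 0.83 with SAG; Smo from -0.44 to 0.06, Gli3 from -0.54 to 0.06 and Hhip from -0.71 to 1.62 with FGF2; Ptch1 from -0.24 to 0.35, Gas1 from -0.31 to 0.07 and Cdon from -0.02 to 0.69 with FGF10.

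Deviations of libraries with the same replicate number correlated at -0.0145 to 0.0261 (SAG and DMSO), 0.0905 to 0.109 (FGF2 and PBS) and 0.041 to 0.0759 (FGF10 and PBS), and not every library correlated best with its own number, so the numbers were not taken to pair cultures. The common coefficient of variation between cultures was 106.6 to 115.2% in the 3 comparisons, which limits these data. Members read in some cultures and at 0 in others, such as Gli1 and Hhip, carry the least certain values.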

Other observations

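Among the genes for release of the ligand, Disp1, which exports Hedgehog from the producing cell, had 23.9, 10.4 and 24.1 CPM with DMSO and 0, 1.34 and 0.0957 CPM with SAG. The groups did not overlap, but the difference was not called (edgeR, adjusted p = 0.748). Scube3, a secreted protein that helps the release, had 0.471, 3.23 and 5.46 CPM with DMSO and was at 0 in all SAG libraries (edgeR, adjusted p = 0.748). Its mean with DMSO was 40.5 times a floor of 3 counts per library, and 24.5 times it without DMSO replicate 3. These ratios are no lower bound of the change. Of all genes tested 8.21% lay lower with SAG without overlap. Disp1 and Scube3 were chosen after their values were seen.

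FGF2 replicate 3, the library outside SAG with reads of Gli1, also had the highest Dhh (25.9 CPM) and the highest Ccnd1 (1016 CPM) of the 17 libraries, although Ccnd1 was high in replicates 3 and 4 of every FGF experiment group. Its Ptch1 level, 66.8 CPM, lay below every PBS library, and it had no read of Hhip. Every FGF2 library (0.992, 17.6, 6.70 and 1.36 CPM) lay below every PBS library for Lrp2, whose mean with PBS was 25.4 ± 9.32 CPM (SD, n = 4). The exact permutation p was 0.0286, and the adjusted p in edgeR was 1.00. Of all 12744 genes tested, 2.45% did not overlap between these groups in either direction.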
